A study of Homo sapiens with 27 samples.

Results

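The arrays described here come from MKN-45 cells: 3 from cells kept in SGX-523 for 48 h, set against 3 from cells kept in it for 24 h. They were chosen by their titles, and they are 6 of the 27 arrays in the series. MKN-45 is a gastric cancer line, and SGX-523 is a selective small-molecule inhibitor of the receptor tyrosine kinase MET, given at 1 uM. The 3 DMSO arrays of MKN-45 serve below to say on which side of the vehicle level a gene lay, and the matching arrays of EBC-1, a lung squamous carcinoma line, at 48 h and at 24 h with the same dose serve as the one comparison with another line. The other line of the series, HCC827, is not used in these comparisons. The question is what the second day of inhibition added: which genes moved only then, which went further the same way, and which turned back.

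MET is the receptor for hepatocyte growth factor (HGF). When it is active it feeds the RAS-ERK and PI3K-AKT pathways, which raise immediate early genes, MYC, cyclins and the synthesis of ribosomes. MKN-45 and EBC-1 carry amplified MET and are known to depend on it, so that blocking the kinase lowers ERK output within hours and slows the cell cycle. Gastric cancer lines can also hold programmes of the gut epithelium, among them mucous, enterocyte-like and enteroendocrine genes.

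Some limits hold for every value. Each group is 3 arrays of 1 cell line, and the titles call them biological replicates without saying that the cultures were separate, so a p-value measures the spread between these arrays. No DMSO time is given for the control arrays, and no comparison with 48 h in DMSO was made, so hours of inhibition and hours in culture cannot be told apart. The source names of DMSO replicates 2 and 3 of MKN-45 read MKN-46 and MKN-47, while their titles and characteristics read MKN-45, and the titles were followed. In RNA from whole cultures, fewer cells of a type and less RNA per cell cannot be told apart.

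Values are the deposited log2 signals, 1 unit of which is a doubling, and levels are compared only within a probe set. A difference between groups of 3 arrays is given ± its standard error (SE) from the fit. Arrays of the same MKN-45 group correlated at 0.9958 or more, and 48 h arrays with 24 h arrays at up to 0.992. The labelled tissue was borne out in part. Of 11 measured gastric epithelial markers, 8 lay above the array median on all 48 h arrays, 8 on all 24 h arrays and 9 on all DMSO arrays. EPCAM, at 12.8, and KRT19, at 12.2 at 48 h, mark epithelium in general rather than stomach. Against the label, the markers CLDN18 (4.64 at 48 h) and GKN1 (3.10) stayed under the brightness filter, and MUC5AC had no single-gene probe set. Markers of fibroblasts, leukocytes and endothelium were mostly dim. Of 10, 9 and 7 measured members, 1, 2 and 1 lay above the array median on every 48 h array, and none of the 6 that could be tested passed between 48 h and 24 h (limma). Summed levels were 38.8 to 39.1 at 48 h and 39.8 to 40.7 at 24 h for fibroblasts, 36.8 to 37.3 and 36.6 to 38.6 for leukocytes, and 28.4 to 30.0 and 29.0 to 29.9 for endothelium. Some technical measures moved with time. The 3' minus 5' difference of ACTB was 4.16 ± 0.12 at 48 h against 3.68 ± 0.02 at 24 h, and that of GAPDH was 0.56 ± 0.08 against 0.40 ± 0.06 (SD, n = 3 each; exact two-sided permutation p = 0.1 for each, the smallest that 3 against 3 arrays allow). The median of the background probe sets was 2.68 ± 0.004 at 48 h against 2.75 ± 0.04 at 24 h (SD, n = 3 each; exact p = 0.1). The part of these measures in the results was not tested. The median of the external control probe sets was 8.15 at 48 h and 8.18 at 24 h (exact p = 0.4), and on the DMSO arrays it was lower than on both, at 7.83 ± 0.03 (SD, n = 3).

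Between 24 h and 48 h many genes moved by small amounts and few by large ones. Of 11211 genes tested, 4609 (41.1%) differed between 48 h and 24 h by limma at a Benjamini-Hochberg adjusted p under 0.05, which is what "passed" means below. Higher at 48 h were 2883 genes (25.7%) and lower 1726 (15.4%). At least 2-fold higher were 103 genes (0.919%) and at least 2-fold lower 43 (0.384%). More had passed against DMSO: 8149 (72.7%) at 24 h, 4566 (40.7%) higher and 3583 (32.0%) lower, and 8377 (74.7%) at 48 h, 4876 (43.5%) higher and 3501 (31.2%) lower. The median 48 h minus 24 h difference over all genes was 0.03, with quartiles of -0.12 and 0.19, and the median SE of a difference was 0.0776. Of the 103 genes that were at least 2-fold higher, 39 were measured above the brightness filter only through their 48 h arrays, so they had to be higher at 48 h to be tested. Leaving out 48 h replicate 1, 2 or 3 gave 67, 69 or 65 genes in place of 103, mostly because such genes then left the test. With the same genes kept, the counts were 105, 108 and 102. Without any filter, 2873 of 18132 genes (15.8%) passed as higher and 1757 (9.69%) as lower, and the median was 0.00.

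The 4609 genes were sorted by what had happened by 24 h. Deepening genes, which had already passed against DMSO at 24 h in the same direction, numbered 1914 (1260 higher and 654 lower at 48 h than at 24 h). Reverting genes, which had passed at 24 h in the opposite direction, numbered 1865 (1085 higher and 780 lower). Late-onset genes, which passed at 48 h against DMSO but not at 24 h, numbered 698 (468 higher and 230 lower). The remaining 132 fell in none of these classes. The pools differed in size. Only genes that had not passed at 24 h against DMSO could be late-onset, and 8149 of 11211 (72.7%) had passed then. Of the reverting genes, 1162 stayed on the 24 h side of DMSO, 561 no longer differed from DMSO, and 142 had crossed to the other side. Large differences lay mostly among the deepening genes, which held 71 of the 103 at least 2-fold higher and 33 of the 43 at least 2-fold lower. Late-onset genes held 16 and 1, and reverting genes 16 and 9. Of the genes higher at 48 h, 46 deepening, 11 late-onset and 0 reverting ones were above the brightness filter only through their 48 h arrays. The split of the 103 therefore carries that condition. The 3 contrasts share arrays, so an error in the 24 h mean enters the 24 h change and the 48 h minus 24 h difference with opposite signs, which on its own adds to reverting counts and takes from deepening ones. The median difference was 0.31 in late-onset, 0.32 in deepening and 0.28 in reverting genes that were higher at 48 h, and -0.32, -0.35 and -0.30 in those that were lower.

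**Figure D1:**
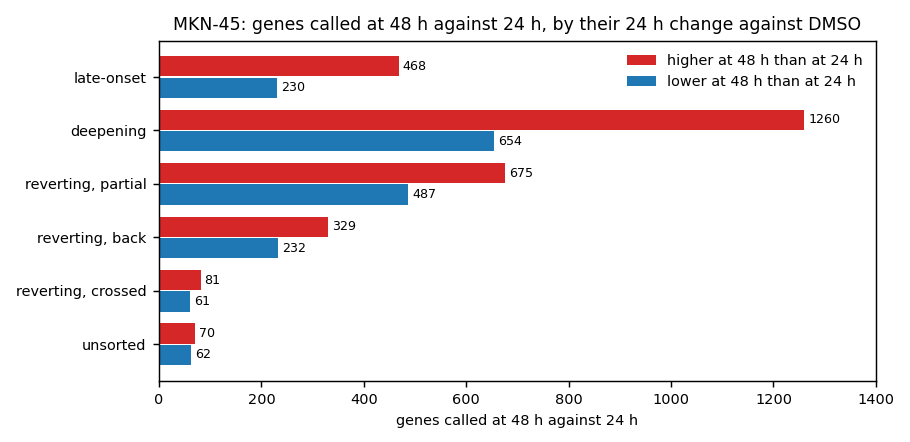
Bars give the number of MKN-45 genes that differed between 48 h and 24 h of SGX-523 in each class, higher and lower at 48 h drawn apart. Deepening genes number 1914, reverting genes 1865 and late-onset genes 698. Late-onset genes could come only from those that had not passed at 24 h against DMSO, while 72.7% of all tested genes had.

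The steepest rise of the second day was that of RGS4, which encodes a GTPase-activating protein that shortens G-protein signalling. It read 8.83, 8.76 and 8.79 on the 48 h arrays, against 3.45, 3.89 and 3.88 on the 24 h arrays. The groups did not overlap, and the difference was 5.05 ± 0.15 (limma adjusted p = 6.12e-18). At 24 h it had moved by only 0.65 from DMSO, and all 3 of its probe sets passed as higher at 48 h. HEPACAM2, a cell adhesion molecule of the immunoglobulin family, read 8.59, 8.21 and 7.99 on the 48 h arrays, against 3.51, 4.13 and 4.09 on the 24 h arrays, a difference of 4.35 ± 0.18. RFX6, a transcription factor of endocrine differentiation in gut and pancreas, read 7.58, 7.43 and 7.99 on the 48 h arrays, against 4.37, 4.27 and 4.51 on the 24 h arrays, a difference of 3.28 ± 0.15. The groups did not overlap for either gene. Over all genes, every 48 h array lay above every 24 h array in 29.0% and below in 19.2%. RGS4, HEPACAM2 and RFX6 passed the brightness filter only through the 48 h arrays.

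A further group of deepening genes was bright enough to be measured without that condition on the filter. TMEM158, a membrane protein known as a RAS-induced gene, read 10.89, 10.68 and 10.78 on the 48 h arrays, against 7.61, 7.74 and 7.65 on the 24 h arrays, a difference of 3.12 ± 0.09 that followed a change of 1.94 by 24 h. HSPA2, a member of the HSP70 chaperone family, read 8.40, 8.40 and 8.54 on the 48 h arrays, against 5.44, 5.31 and 5.29 on the 24 h arrays, a difference of 3.10 ± 0.10. Its 24 h change was 0.57, so most of its total of 3.67 came in the second day. OLFML2B, an olfactomedin-like secreted protein, rose by 2.70 ± 0.13, OPRK1, the kappa opioid receptor, by 2.49 ± 0.16, and KRT15, a type I keratin of basal epithelial cells, by 1.89 ± 0.07. For these 5 genes no 24 h array reached the lowest 48 h array. SEMA6A, a transmembrane semaphorin, rose by 2.70 ± 0.25, but its 24 h arrays ranged widely, at 6.12, 5.54 and 4.41.

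**Figure D2:**
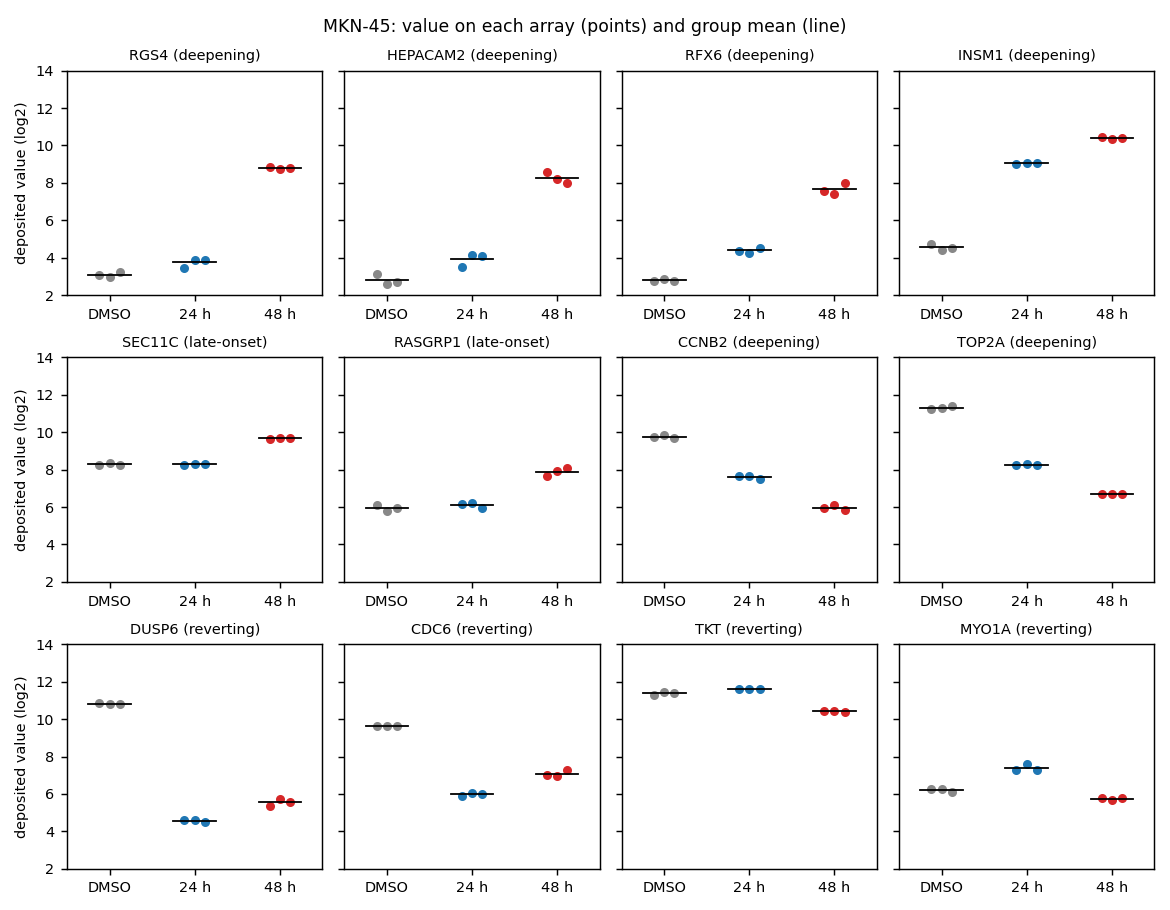
Each panel is 1 gene, with the deposited log2 signal on the vertical axis, 1 point per MKN-45 array and a line at the mean of the DMSO, 24 h and 48 h groups. RGS4, HEPACAM2, RFX6 and RASGRP1 rise mainly after 24 h, CCNB2 and TOP2A fall at both steps, DUSP6 and CDC6 turn back part of the way, and TKT and MYO1A fall below DMSO after a rise.

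Among late-onset genes brighter than the median gene, the largest rises were those of RASGRP1 and SEC11C. RASGRP1, an exchange factor that activates RAS in response to diacylglycerol, read 7.68, 7.92 and 8.07 on the 48 h arrays, against 6.16, 6.24 and 5.96 on the 24 h arrays. No 24 h array came near a 48 h array, and the 24 h mean lay 0.15 from DMSO while the 48 h minus 24 h difference was 1.77 ± 0.13 (adjusted p = 8.45e-11). SEC11C, a catalytic subunit of the signal peptidase that trims secreted proteins, read 9.66, 9.69 and 9.71 on the 48 h arrays, against 8.26, 8.29 and 8.28 on the 24 h arrays. Its DMSO and 24 h means differed by -0.01, and at 48 h it was higher by 1.41 ± 0.05 (adjusted p = 2.30e-16). DEFB1, an antimicrobial beta-defensin, was higher by 1.23 ± 0.14 and IFI30, a lysosomal thiol reductase of antigen processing, by 1.09 ± 0.06. PTPRN2, a protein of secretory granules in neuroendocrine cells, was higher by 0.93 ± 0.14, CEP44, a centrosomal protein, by 0.79 ± 0.08, PODXL, a sialomucin of the cell surface, by 0.73 ± 0.10, and the kinase DYRK2 by 0.73 ± 0.05. By class alone 468 genes were late-onset and higher, and 11 of them passed the filter only through the 48 h arrays.

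Late-onset falls reached 2-fold in 1 gene. That gene, LSM11, a component of the U7 particle that trims histone messages, fell by 1.22 ± 0.09 and was named after its values were seen. HAUS4, a subunit of the augmin complex that seeds microtubules in the spindle, read 7.53, 7.68 and 7.50 on the 48 h arrays, against 8.41, 8.59 and 8.61 on the 24 h arrays. All 48 h arrays lay below all 24 h arrays, and the difference was -0.96 ± 0.06 (adjusted p = 2.58e-11) against a 24 h change of 0.03. KLF2, a Krüppel-like transcription factor, fell by 0.85 ± 0.10, TRIM15, a RING-type tripartite motif protein, by 0.84 ± 0.07, and BAIAP2L1, an adaptor between membrane and actin, by 0.71 ± 0.06. AHCY, which clears S-adenosylhomocysteine, fell by 0.68 ± 0.04 and ANXA1, a phospholipid-binding annexin, by 0.65 ± 0.03. ABHD14B fell by 0.66 ± 0.07 and ENTREP3 by 0.64 ± 0.07.

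Genes of the enteroendocrine lineage, the hormone-producing cells scattered through the gut lining, were more often higher than lower at 48 h. The list was chosen with earlier results of these data known, and it includes RGS4 and RFX6, described above. It held 47 genes, of which 17 were bright enough to test. Of these, 10 passed as higher and 1 as lower, against 25.7% and 15.4% of all genes, with a median of 0.36. Of those 17, 5 were tested only because of their 48 h arrays, so the share and the median carry that condition. Among the other 12, 5 were higher and 1 lower, with a median of 0.08. Without 48 h replicate 1, 2 or 3, when members fell under the filter, 6, 5 or 4 were higher, with medians of 0.12, 0.10 and 0.03. Without a filter, 12 of 41 passed as higher and 3 as lower, with a median of 0.06, against 15.8% and 9.69% of all genes without it. INSM1, a zinc finger factor required for endocrine differentiation, read 10.46, 10.32 and 10.38 on the 48 h arrays, against 9.02, 9.07 and 9.08 on the 24 h arrays. Most of its rise had come by 24 h (4.51 against DMSO), and the second day added 1.33 ± 0.10. NEUROG3, the basic helix-loop-helix factor that starts the endocrine lineage, read 6.21, 6.25 and 5.80 on the 48 h arrays, against 4.03, 3.74 and 4.19 on the 24 h arrays, a difference of 2.10 ± 0.17. SYT13, a synaptotagmin linked to endocrine progenitors in mouse, was higher by 2.38 ± 0.16 and NKX2-2, a homeobox factor downstream of NEUROG3, by 1.27 ± 0.16. In all 4 genes every 48 h array lay above every 24 h array, and all but INSM1 were above the filter only at 48 h.

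Other members of that lineage were mixed. SCG2, a granin of secretory granules, was higher by 1.79 ± 0.16, which brought it back to the DMSO level after a fall of 1.47 at 24 h. ISL1, a LIM homeobox factor, was late-onset at 0.36 ± 0.10, and DDC, which decarboxylates the precursors of dopamine and serotonin, was higher by 0.37 ± 0.04. CHGB, another granin, fell by 0.30 ± 0.11. The hormone genes SST, GAST, GHRL, CCK, GCG, GIP and PYY stayed under the filter, as did CHGA and TPH1. Members that were tested and did not pass included PAX6 at -0.17 ± 0.12, SYP at -0.07 ± 0.08 and PAM at -0.03 ± 0.05. These members were named after their values were seen. In the Notch pathway, which holds back endocrine differentiation, 18 of 24 genes were tested, with 4 higher and 1 lower and a median of 0.03, shares near or below those of all genes (25.7% and 15.4%). HES6, an inhibitor of HES1 activity, was higher by 0.94 ± 0.06, and the ligand DLL3 was late-onset at 0.96 ± 0.18. HES1, a Notch target that represses NEUROG3, was higher by 0.46 ± 0.08 and NRARP, a feedback inhibitor of Notch, by 0.48 ± 0.11. The member that fell was DTX4, a Deltex ubiquitin ligase, by 0.38 ± 0.11.

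The largest coordinated fall was that of mitotic genes, which went on falling from an already low level. The list held 35 genes, all tested: 29 passed as lower at 48 h and none as higher, against 15.4% lower among all genes. The list median was -0.76, after a median of -3.11 at 24 h against DMSO, and stood at -3.74 at 48 h against DMSO. CCNB2, a mitotic cyclin, read 5.97, 6.09 and 5.84 on the 48 h arrays, against 7.64, 7.65 and 7.53 on the 24 h arrays. TOP2A, the topoisomerase that untangles chromosomes, read 6.69, 6.70 and 6.68 on the 48 h arrays, against 8.27, 8.31 and 8.23 on the 24 h arrays. Both fell without overlap between the groups, CCNB2 by 1.64 ± 0.07 (adjusted p = 2.58e-15) and TOP2A by 1.58 ± 0.07 (adjusted p = 9.08e-15). KIF20A, a kinesin of cytokinesis, fell by 1.88 ± 0.10 and DLGAP5, a spindle protein, by 1.70 ± 0.12. BIRC5, the chromosomal passenger survivin, fell by 1.55 ± 0.13, the proliferation marker MKI67 by 1.32 ± 0.14, CDC20, an activator of the anaphase-promoting complex, by 1.16 ± 0.09 and the mitotic kinase CDK1 by 0.80 ± 0.08. The 6 members that did not pass were AURKB, MAD2L1, FOXM1, PLK1, TTK and BUB1B, with differences from -0.21 to -0.11. BIRC5 and the genes after it were named after their values were seen. With 64 added to the linear signals the list median was -0.38.

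Promoters of mitotic genes often hold the cell cycle homology region, CHR, with the letters TTTGAA, to which the DREAM complex and the MMB-FOXM1 complex bind. Promoter windows of 300 bases, which span the gene start and lie mostly before it, were taken from RefSeq (GRCh38.p14), which held 9253 of the 11211 tested genes. TTTGAA on either strand was in 9.58% of these, and in 22 of the 29 matched mitotic genes (75.9%). It was in 19 of 25 members that were lower at 48 h (76.0%) and in 3 of 4 that did not pass. CCAAT, the letters bound by NF-Y, was in 37.0% of all windows and in 22 of 29 here (75.9%). A match is a run of letters, not a shown site. The windows of CCNB2 and TOP2A are printed because these genes fell with the smallest p-values of the list, with capitals marking TTTGAA or its reverse complement. CCNB2 lies at chr15:59104896-59105195 on the plus strand with the match starting 29 bases before the gene start, and TOP2A at chr17:40417847-40418146 on the minus strand with matches 194 and 151 bases before it.
CCNB2: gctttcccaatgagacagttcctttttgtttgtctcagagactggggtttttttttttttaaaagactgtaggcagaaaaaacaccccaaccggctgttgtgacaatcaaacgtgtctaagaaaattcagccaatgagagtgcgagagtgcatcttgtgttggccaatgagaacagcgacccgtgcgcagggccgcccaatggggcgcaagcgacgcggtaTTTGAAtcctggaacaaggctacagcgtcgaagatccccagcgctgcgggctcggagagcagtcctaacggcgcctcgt
TOP2A: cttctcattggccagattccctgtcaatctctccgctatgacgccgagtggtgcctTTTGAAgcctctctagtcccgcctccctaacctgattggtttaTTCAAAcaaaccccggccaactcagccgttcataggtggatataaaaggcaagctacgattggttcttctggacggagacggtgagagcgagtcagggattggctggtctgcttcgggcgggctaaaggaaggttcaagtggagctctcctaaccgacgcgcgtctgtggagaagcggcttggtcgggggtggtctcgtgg

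Genes of the G1/S transition and DNA replication did not move as one group. Of 35 genes 33 were tested, and 7 passed as higher and 9 as lower at 48 h (25.7% and 15.4% of all genes), with a median of -0.14 after a 24 h median of -2.35. PRIM1, the catalytic primase subunit that starts DNA strands, read 6.61, 6.90 and 6.89 on the 48 h arrays, against 8.33, 8.47 and 8.44 on the 24 h arrays. It kept falling, by 1.61 ± 0.06 (adjusted p = 2.17e-15). CDC6, which loads the MCM helicase onto replication origins, read 7.02, 6.97 and 7.30 on the 48 h arrays, against 5.89, 6.05 and 5.99 on the 24 h arrays. It turned back, with a difference of 1.12 ± 0.08 (adjusted p = 8.22e-11) after -3.65 at 24 h, and at 48 h still lay 2.54 below DMSO. TYMS, thymidylate synthase, fell by 0.50 ± 0.06 and RRM1, the large subunit of ribonucleotide reductase, by 0.44 ± 0.05. RRM2, its small subunit, fell by 0.90 ± 0.11, while FEN1, a flap endonuclease, was higher by 0.45 ± 0.06 and CCNE1, cyclin E1, by 0.30 ± 0.09, these 3 being named after their values were seen. When the mean of all kept probe sets stood for each gene, 3 members were higher in place of 7.

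E2F factors drive many of these genes through letters such as TTTCCCG or TTTCGCG. Together with the spellings TTTGCCG and TTTGGCG, one of these 4 on either strand was in 13.4% of all windows and in 19 of 29 matched members (65.5%). By the change from 24 h to 48 h it was in 3 of 5 that were higher, 3 of 8 that were lower and 13 of 16 that did not pass. The CDC6 window is shown since CDC6 had the largest rise of the list. It lies at chr17:40287629-40287928 on the plus strand, and the capitals mark matches starting 28 bases before and 7 bases after the gene start.
CDC6: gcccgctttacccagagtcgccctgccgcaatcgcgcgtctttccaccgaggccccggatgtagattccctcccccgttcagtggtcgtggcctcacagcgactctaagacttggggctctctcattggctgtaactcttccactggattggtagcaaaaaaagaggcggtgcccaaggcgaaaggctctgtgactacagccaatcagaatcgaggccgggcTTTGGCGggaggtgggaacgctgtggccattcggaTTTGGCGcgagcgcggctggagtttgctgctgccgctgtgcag

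Targets of the ERK pathway, which had dropped at 24 h, partly recovered. Of 21 genes 20 were tested, and 10 passed as higher and 1 as lower, against 25.7% and 15.4% of all genes. The list median was 0.23, against -2.49 at 24 h and -2.33 at 48 h relative to DMSO. DUSP6, the phosphatase that dephosphorylates ERK and is itself an ERK target, read 5.34, 5.74 and 5.57 on the 48 h arrays, against 4.61, 4.59 and 4.49 on the 24 h arrays. Every 48 h array lay above every 24 h array, and the difference was 0.99 ± 0.08 (adjusted p = 4.69e-10), but at 48 h it was still 5.27 below DMSO. ETV1, an ETS factor downstream of ERK, was higher by 1.06 ± 0.13 with 2 of its 4 probe sets passing, and MYC by 0.70 ± 0.08. The ERK feedback genes SPRY2 at 0.53 ± 0.06, SPRY4 at 0.50 ± 0.13 and SPRY1 at 0.36 ± 0.06 were also higher, as were SPRED2 at 0.44 ± 0.08, PHLDA1 at 0.51 ± 0.05 and DUSP4 at 0.31 ± 0.07. All 9 of these recovered only part of their fall. EPHA4, an ephrin receptor that had risen by 24 h, rose further by 1.69 ± 0.14, and CCND1, cyclin D1, was the member that fell, by 0.26 ± 0.08. Apart from DUSP6, PHLDA1, SPRY2 and EPHA4, these members were named after their values were seen. For FOS the brightest probe set gave -0.22 ± 0.18, which did not pass, while 2 of its 4 probe sets passed as higher. The list median was 0.09 with 64 added to the linear signals and 0.40 with the filter at the 75th percentile.

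Ribosome biogenesis factors, many of them MYC targets, also turned back slightly. Of 24 genes 23 were tested, with 12 higher and 3 lower at 48 h (25.7% and 15.4% of all genes) and a median of 0.14 after -0.92 at 24 h. NOP16, a nucleolar protein of the large subunit pathway, was higher by 0.56 ± 0.06, NOLC1, a nucleolar chaperone, by 0.31 ± 0.04 and DDX21, an RNA helicase of rRNA processing, by 0.23 ± 0.03. FBL, the methyltransferase fibrillarin, fell by 0.43 ± 0.04. The 2 other members that fell were BOP1, by 0.36 ± 0.07, and NPM1, by 0.14 ± 0.03.

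**Figure D3:**
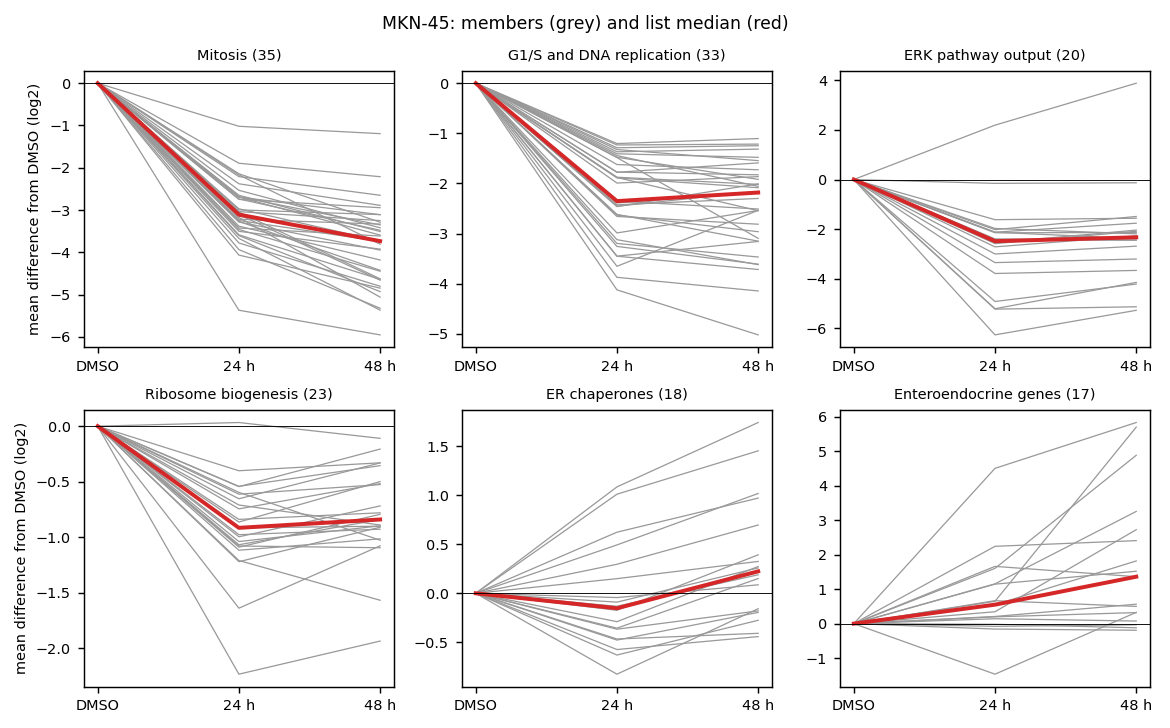
Each panel is 1 gene list in MKN-45, with the mean difference from DMSO (log2) at 24 h and 48 h for each tested member in grey and the list median in red. The mitotic median is -3.11 at 24 h and -3.74 at 48 h, the ERK median -2.49 and -2.33, and the median of the ER chaperones -0.15 and 0.22.

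Chaperones and folding enzymes of the endoplasmic reticulum (ER) were higher at 48 h almost throughout. All 18 listed genes were tested, and 16 passed as higher and none as lower, against 25.7% higher among all genes, with a median of 0.35. The list median relative to DMSO was -0.15 at 24 h and 0.22 at 48 h. SDF2L1, a partner of the HSP70 chaperone of the ER, read 9.16, 9.14 and 9.04 on the 48 h arrays, against 8.35, 8.50 and 8.49 on the 24 h arrays. DNAJB9, a J-domain cochaperone, read 9.36, 9.23 and 9.25 on the 48 h arrays, against 8.53, 8.63 and 8.71 on the 24 h arrays. MANF, a secreted ER stress protein, read 11.83, 11.88 and 11.82 on the 48 h arrays, against 11.29, 11.36 and 11.37 on the 24 h arrays. The differences were 0.67 ± 0.06, 0.66 ± 0.06 and 0.51 ± 0.04, and no 48 h array overlapped a 24 h array in these 3 genes. HYOU1, an HSP70-related chaperone, was higher by 0.57 ± 0.07, HERPUD1, a membrane protein of ER-associated degradation, by 0.52 ± 0.06 and XBP1, a transcription factor of the unfolded protein response, by 0.44 ± 0.07. HSPA5, the main HSP70 chaperone of the ER, was higher by 0.32 ± 0.03 and HSP90B1 by 0.19 ± 0.03. CALR and EDEM1 did not pass, at 0.13 ± 0.10 and 0.06 ± 0.07. HYOU1 and the genes after it were named after their values were seen. By class, 8 members were reverting, 6 deepening and 2 late-onset. CANX passed as higher on its brightest probe set (0.13 ± 0.02), but of its 9 kept probe sets 3 passed as higher and 5 as lower.

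Many of these genes are known to answer ATF6 and XBP1 through the ER stress element, spelled CCAAT, then 9 bases of any kind, then CCACG, so that it contains a CCAAT box. On either strand it was in 0.140% of all windows (13 promoters) and in 6 of 17 matched members (35.3%). It was in 5 of 15 members that were higher at 48 h (33.3%) and in 1 of 2 that did not pass. CCAAT alone was in 16 of the 17 (94.1%). Among all matched genes that were higher at 48 h, 8 of 2432 (0.329%) held the element. Windows of 3 members that hold the element are shown, with the element or its reverse complement in capitals. They are not the members with the largest differences. SDF2L1, DNAJB9, MANF, HYOU1 and HERPUD1, which were higher by more than HSPA5 and HSP90B1, held no match. CRELD2, an ER-resident protein that was higher by 0.56 ± 0.05, lies at chr22:49918384-49918683 on the plus strand with a match 80 bases before the gene start. HSPA5 lies at chr9:125241294-125241593 on the minus strand with a match 66 bases before it, and HSP90B1 at chr12:103930160-103930459 on the plus strand with matches 194 and 89 bases before it.
CRELD2: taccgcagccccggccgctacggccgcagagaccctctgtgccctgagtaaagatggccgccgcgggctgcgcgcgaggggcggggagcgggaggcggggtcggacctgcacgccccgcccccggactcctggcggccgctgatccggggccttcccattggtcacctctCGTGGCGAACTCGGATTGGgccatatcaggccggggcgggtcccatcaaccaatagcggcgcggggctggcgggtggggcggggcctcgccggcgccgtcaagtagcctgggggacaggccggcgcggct
HSPA5: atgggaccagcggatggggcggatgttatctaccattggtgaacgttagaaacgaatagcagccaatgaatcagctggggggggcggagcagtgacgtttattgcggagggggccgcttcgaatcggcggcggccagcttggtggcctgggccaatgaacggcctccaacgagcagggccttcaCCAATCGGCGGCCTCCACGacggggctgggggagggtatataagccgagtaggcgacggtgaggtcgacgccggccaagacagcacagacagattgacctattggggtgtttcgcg
HSP90B1: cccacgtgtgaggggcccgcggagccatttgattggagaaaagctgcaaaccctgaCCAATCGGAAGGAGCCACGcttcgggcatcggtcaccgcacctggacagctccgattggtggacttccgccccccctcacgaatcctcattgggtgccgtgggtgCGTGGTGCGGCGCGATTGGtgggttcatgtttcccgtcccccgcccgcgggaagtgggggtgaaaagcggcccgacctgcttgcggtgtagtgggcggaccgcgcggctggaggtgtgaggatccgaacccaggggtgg

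Of the genes of antigen presentation by major histocompatibility complex (MHC) class I, 15 of 16 were tested. Between 24 h and 48 h 9 passed as higher, none as lower and 6 did not pass, against 25.7% higher among all genes, with a median of 0.22. At 24 h against DMSO 13 had passed as higher and 1 as lower, with a median of 0.61. All 9 were deepening. HLA-C, a class I heavy chain, read 9.63, 9.86 and 9.64 on the 48 h arrays, against 9.25, 9.23 and 9.19 on the 24 h arrays, a difference of 0.49 ± 0.05. B2M, the light chain, was higher by 0.23 ± 0.02, PSMB9, an immunoproteasome subunit, by 0.41 ± 0.06 and ERAP1, which trims peptides in the ER, by 0.32 ± 0.05. Class I heavy chains are similar in sequence, so their probe sets may share signal.

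Chemokines and targets of NF-kB showed the same direction. Of 17 genes 12 were tested, and 8 passed as higher and 1 as lower (25.7% and 15.4% of all genes), with a median of 0.42 after 0.53 at 24 h. CXCL1, a neutrophil-attracting chemokine, read 7.63, 7.66 and 7.56 on the 48 h arrays, against 6.86, 6.87 and 6.83 on the 24 h arrays, a difference of 0.76 ± 0.07. CXCL3, its close relative, was higher by 0.73 ± 0.10, CCL20, which attracts cells with CCR6, by 0.78 ± 0.18, TNFAIP2 by 0.72 ± 0.09 and NFKBIA, the inhibitor that NF-kB itself induces, by 0.35 ± 0.04. CXCL8 turned back upward by 0.48 ± 0.15, and CXCL16 fell by 0.21 ± 0.07. CCL20, CXCL8 and CXCL16 were named after their values were seen. With the filter at the 75th percentile 5 members were higher in place of 8.

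Genes of the enterocyte brush border were more often lower than higher. Of 33 genes 15 were tested, and 2 passed as higher and 7 as lower, against 25.7% and 15.4% of all genes, with a median of -0.26. By class 4 were deepening and 5 reverting. MYO1A, a myosin that links microvillar actin to the membrane, read 5.76, 5.68 and 5.81 on the 48 h arrays, against 7.28, 7.59 and 7.26 on the 24 h arrays, against 6.26, 6.25 and 6.10 on the DMSO arrays. It fell by 1.62 ± 0.09 (adjusted p = 2.16e-12), which undid a rise of 1.17 and left it 0.45 below DMSO. CDH17, a cadherin of intestinal epithelium, fell by 0.78 ± 0.07 and PHGR1, a small protein of intestinal epithelium, by 0.73 ± 0.09. SLC15A1, the peptide transporter of the brush border, ran the other way. It read 7.44, 7.22 and 7.24 on the 48 h arrays, against 5.87, 5.83 and 5.87 on the 24 h arrays, a difference of 1.45 ± 0.09 after -0.25 at 24 h. The other member that was higher was DPP4, a brush border peptidase, at 0.58 ± 0.13.

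Mucins and gastric secretory genes were mixed. Of 32 genes 18 were tested, with 4 higher and 7 lower at 48 h (25.7% and 15.4% of all genes) and a median of -0.16 after -1.23 at 24 h. LIPF, gastric lipase of chief cells, read 7.02, 7.20 and 6.93 on the 48 h arrays, against 4.27, 4.65 and 4.69 on the 24 h arrays, a difference of 2.51 ± 0.14, and it passed the filter only through the 48 h arrays. The serine protease inhibitor SPINK1 was higher by 0.79 ± 0.08 and AGR2, a disulfide isomerase needed for mucin assembly, by 0.39 ± 0.03. ANXA10, an annexin of gastric epithelium, fell by 0.42 ± 0.04, VSIG1, a junction protein of gastric glands, by 1.31 ± 0.16 and TFF1, the trefoil peptide of surface mucous cells, by 0.89 ± 0.11. TFF3, the intestinal trefoil peptide, was higher by 0.43 ± 0.12. TFF3 was named after its values were seen. The gastric epithelial markers summed to between 84.8 and 85.6 on the 48 h arrays and between 87.1 and 88.1 on the 24 h arrays. On the DMSO arrays they summed to between 101.1 and 101.5, and the list median at 24 h against DMSO was -1.55. Of 9 tested between 48 h and 24 h, 2 passed as higher and 4 as lower (25.7% and 15.4% of all genes).

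Among transcription factors of gut lineages 19 of 27 were tested, with 10 higher and 4 lower at 48 h (25.7% and 15.4% of all genes) and a median of 0.24. KLF4, a factor of differentiating gut epithelium, was higher by 0.44 ± 0.07 and CDX2, the factor of intestinal identity, by 0.53 ± 0.09. PDX1, a factor of pancreas, duodenum and antrum, was higher by 0.71 ± 0.17 and FOXA3, a forkhead factor of endoderm, by 0.47 ± 0.13. ID1, a BMP target that blocks basic helix-loop-helix factors, fell by 0.27 ± 0.03 and its relative ID3 by 0.38 ± 0.07. PDX1, FOXA3 and ID3 were named after their values were seen. For EHF, an epithelial ETS factor, the brightest probe set gave 0.28 ± 0.04, but its probe sets disagreed and their mean gave -0.012.

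**Figure D4:**
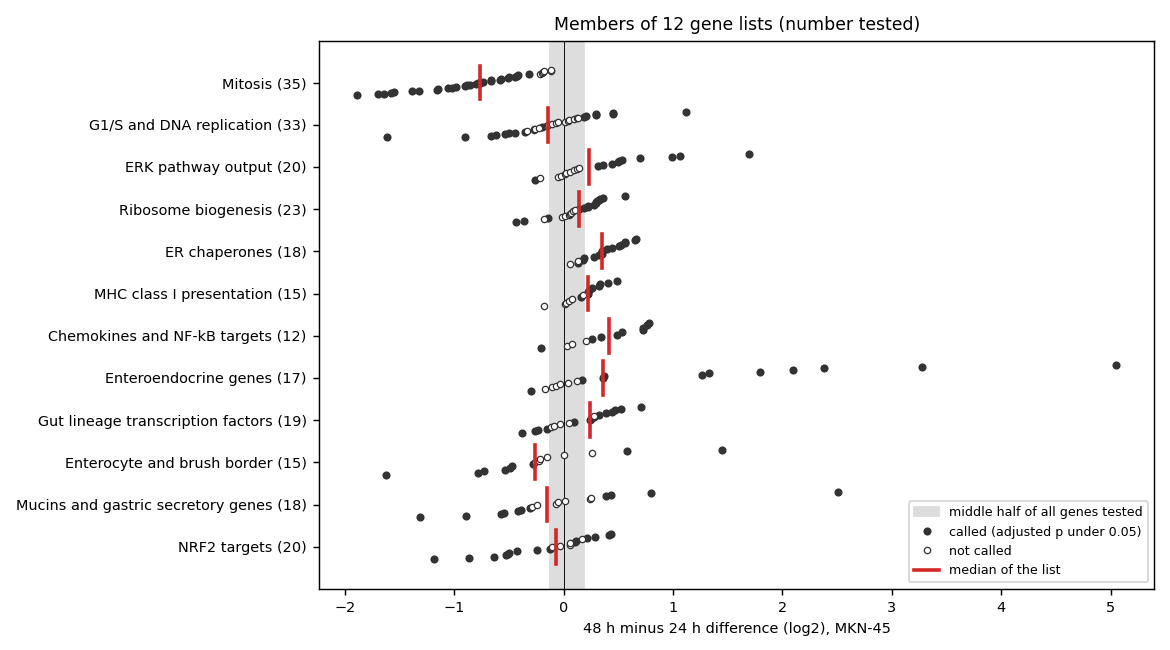
Each row is 1 gene list, and each point is the 48 h minus 24 h difference (log2) of 1 tested member, filled where it passed and open where it did not. Red marks show list medians, from -0.76 for mitosis to 0.42 for chemokines, and the grey band spans the quartiles of all genes (-0.12 to 0.19).

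TKT was among the genes that fell past the DMSO level. It encodes the transketolase of the pentose phosphate pathway and read 10.46, 10.43 and 10.36 on the 48 h arrays, against 11.59, 11.60 and 11.62 on the 24 h arrays. On the DMSO arrays it read 11.30, 11.45 and 11.39. Thus the 24 h arrays lay above the DMSO arrays and the 48 h arrays below them, and the fall of the second day was 1.18 ± 0.04 (adjusted p = 2.03e-17, with all 3 probe sets lower). TKT belongs to the list of NRF2 targets, of which 20 of 22 were tested, with 6 higher and 9 lower at 48 h (25.7% and 15.4% of all genes) and a median of -0.07. PIR, an NRF2-induced nuclear protein, fell by 0.64 ± 0.07, SLC7A11, the cystine-glutamate exchanger, fell by 0.50 ± 0.06, and ABCC3, a transporter of conjugates, was higher by 0.41 ± 0.05. AKR1B10, an aldo-keto reductase, fell by 0.86 ± 0.22, and was named after its values were seen.

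Other crossing genes ran in both directions. F5, coagulation factor V, read 8.29, 8.48 and 8.35 on the 48 h arrays, against 9.53, 9.63 and 9.53 on the 24 h arrays, a fall of 1.19 ± 0.07 after a rise of 0.79. BCL2L14, a BCL2 family member, fell by 1.07 ± 0.09 after 0.66, SNHG1, a host gene of small nucleolar RNAs, by 1.05 ± 0.08 after 0.87, and CSNK2A2, a catalytic subunit of casein kinase 2, by 0.96 ± 0.06 after 0.79. RBMX, an RNA-binding protein of splicing, fell by 0.98 ± 0.04 and kept 0.12 of its 24 h rise of 1.10. LRP4, a co-receptor for Wnt antagonists and agrin, read 8.59, 8.60 and 8.72 on the 48 h arrays, against 7.22, 7.03 and 7.15 on the 24 h arrays. It fell by 0.88 at 24 h and then crossed to 0.63 above DMSO. SLC36A4, an amino acid transporter, did likewise, with a second-day difference of 1.33 ± 0.07, and HSPA1B, an inducible HSP70, with 0.79 ± 0.05. Large reversals that stopped short of DMSO included CELA3A, a pancreatic-type elastase, which fell by 1.19 ± 0.14 after a rise of 3.69, and CYP4F3, a leukotriene hydroxylase, which fell by 1.12 ± 0.10 after a rise of 2.89. PLK2, a kinase of the polo family, was higher by 0.85 ± 0.14, with 1 of its 3 probe sets passing.

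Some deepening falls lay outside the cell cycle lists. GAL, the neuropeptide galanin, read 7.02, 6.92 and 6.93 on the 48 h arrays, against 8.27, 8.37 and 8.24 on the 24 h arrays, a fall of 1.34 ± 0.12. LGALS1, galectin-1, fell by 1.26 ± 0.05 and SOSTDC1, a secreted antagonist of BMP and Wnt, by 1.18 ± 0.10. PCLAF, a partner of the replication clamp, fell by 1.07 ± 0.05 and HMGA1, a chromatin protein of proliferating cells, by 1.02 ± 0.04. In these 5 genes every 48 h array lay below every 24 h array.

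The targeted receptor itself did not pass between the times. MET read 12.27, 12.22 and 12.13 on the 48 h arrays, against 12.24, 12.19 and 12.29 on the 24 h arrays, and on the DMSO arrays 12.60, 12.78 and 12.80. The groups at 48 h and 24 h overlapped, with a difference of -0.03 ± 0.07 (adjusted p = 0.757) on the brightest probe set, although 5 of its 6 probe sets passed as lower, with differences down to -0.68. MET message is no check of kinase inhibition. HGF, its ligand, stayed under the filter, with means of 2.97 at 48 h, 3.14 at 24 h and 2.93 in DMSO. Among receptor tyrosine kinases and ligands 28 of 34 were tested, with 7 higher and 7 lower (25.7% and 15.4% of all genes) and a median of 0.03. EGFR read 6.83, 6.81 and 6.84 on the 48 h arrays, against 7.55, 7.55 and 7.53 on the 24 h arrays, a fall of 0.72 ± 0.05 with no overlap that followed -0.63 at 24 h. INSR, the insulin receptor and a FOXO target, read 10.11, 10.15 and 10.15 on the 48 h arrays, against 9.30, 9.28 and 9.30 on the 24 h arrays, a difference of 0.84 ± 0.06 with no overlap. VEGFA, the vascular growth factor, was higher by 0.38 ± 0.07.

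Counts in smaller groups of cell cycle and survival genes are read against 25.7% higher and 15.4% lower among all genes. Of 11 tested D-type cyclins and CDK inhibitors 6 were higher and 2 lower. CDKN1C, the inhibitor p57, was higher by 0.58 ± 0.11 and CDKN1A, the inhibitor p21, by 0.26 ± 0.05, while CCND2, cyclin D2, fell by 0.76 ± 0.15. Of 20 tested FOXO targets 10 were higher and 2 lower with a median of 0.18, among them INSR, IRS1, the insulin receptor substrate, at 0.41 ± 0.06 and TP53INP1, a p53-induced protein of autophagy, at 0.42 ± 0.08. KLF6, a Krüppel-like factor, was one of the 2 that fell, by 0.41 ± 0.06. Without 48 h replicate 3, 5 FOXO targets were higher in place of 10, and 3 D-type cyclins and CDK inhibitors in place of 6. In the BCL2 family 5 of 15 tested were higher and 3 lower, near those shares. Its members higher numbered 3 without 24 h replicate 1, and 2 with the mean of all kept probe sets. With that mean the FOXO median was 0.06, with 4 members lower in place of 2.

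Set beside EBC-1, more genes passed on the second day in MKN-45. In EBC-1, over the same 11211 genes as filtered on MKN-45 levels, 2543 (22.7%) differed between 48 h and 24 h, 1077 (9.61%) higher and 1466 (13.1%) lower, with a median of 0.01. The difference between the lines was tested for each gene as an interaction of line and time. It passed for 3359 genes (30.0%), of which 2165 (19.3%) had a higher 48 h minus 24 h value in MKN-45 than in EBC-1 and 1194 (10.7%) a lower one. By at least 2-fold the counts were 135 (1.20%) and 46 (0.410%). The split by direction varied with the scaling of the arrays. With quantile normalization 1778 genes passed with the higher value in MKN-45 and 1509 with the lower. With each array centred on its median these counts were 2663 and 928.

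Several of the steepest rises in MKN-45 did not pass in EBC-1. The 48 h minus 24 h difference of RGS4 was 5.05 in MKN-45 and 0.11 in EBC-1 (interaction adjusted p = 3.17e-14). For TMEM158 it was 3.12 in MKN-45 and 0.09 in EBC-1, for HSPA2 3.10 and -0.03, for RASGRP1 1.77 and 0.14, and for INSM1 1.33 and 0.03, each past the interaction test. HEPACAM2 rose in EBC-1 as well, at 4.35 in MKN-45 and 0.84 in EBC-1, and KRT15 stood at 1.89 and 0.45, both past the interaction test too. RGS4 and HEPACAM2 passed the brightness filter only through the MKN-45 48 h arrays, so their gaps between the lines carry that condition. The single genes named here were picked by their MKN-45 differences or the p-values of these. The interaction is therefore not independent of the choice. Of the 12 enteroendocrine genes that did not depend on their MKN-45 48 h arrays to be tested, 4 passed the interaction with the higher value in MKN-45 and none with the lower (19.3% and 10.7% of all genes). Without a filter the counts were 11 and 2 of 41, against 2117 and 1255 of all 18132 genes. ER chaperones passed as higher in 16 of 18 in MKN-45 (25.7% of all genes). In EBC-1 3 of 18 were higher and 3 lower (9.61% and 13.1%). For 15 of 18 the interaction passed with the higher value in MKN-45 (19.3%). ERK targets had 10 higher and 1 lower in MKN-45 (25.7% and 15.4% of all genes). In EBC-1 5 were higher and 3 lower (9.61% and 13.1%). For 7 of 20 the interaction passed with the higher value in MKN-45 and for 2 with the lower (19.3% and 10.7%). DUSP6 was among the 7, at 0.99 in MKN-45 and -0.44 in EBC-1.

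Mitotic genes kept falling in both lines, 29 of 35 in MKN-45 (15.4% of all genes) and 32 of 35 in EBC-1 (13.1% of all genes), with medians of -0.76 and -0.92. The interaction passed for 16 of them, with the higher value in MKN-45 for 13 and the lower for 3 (19.3% and 10.7% of all genes). CCNB2 fell by 1.64 in MKN-45 and by 1.79 in EBC-1, and the interaction did not pass (adjusted p = 0.241). TOP2A fell by less in MKN-45 (-1.58) than in EBC-1 (-2.32; interaction adjusted p = 2.92e-06). Brush border genes ran in opposite directions. In MKN-45 2 were higher and 7 lower (25.7% and 15.4% of all genes). In EBC-1 10 were higher and none lower (9.61% and 13.1%). For 9 of 15 the interaction passed with the lower value in MKN-45 (10.7%). The largest such gap named here was that of SLC7A7, an amino acid transporter, at -0.86 in MKN-45 and 1.34 in EBC-1. MYO1A stood at -1.62 and 0.41, F5 at -1.19 and 0.42, the carbonic anhydrase CA12 at -0.58 and 0.82, and EGFR at -0.72 and 0.52. Cholesterol synthesis genes were higher in 13 of 15 in EBC-1 (9.61% of all genes) and in 5 of 15 in MKN-45 (25.7%). Of their interactions 9 were lower in MKN-45 and none higher (10.7% and 19.3%). Without 48 h replicate 3, 3 cholesterol synthesis genes were higher in MKN-45 in place of 5. TKT fell in MKN-45 (-1.18) and did not pass in EBC-1 (-0.05), with an interaction adjusted p of 1.49e-13.

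**Figure D5:**
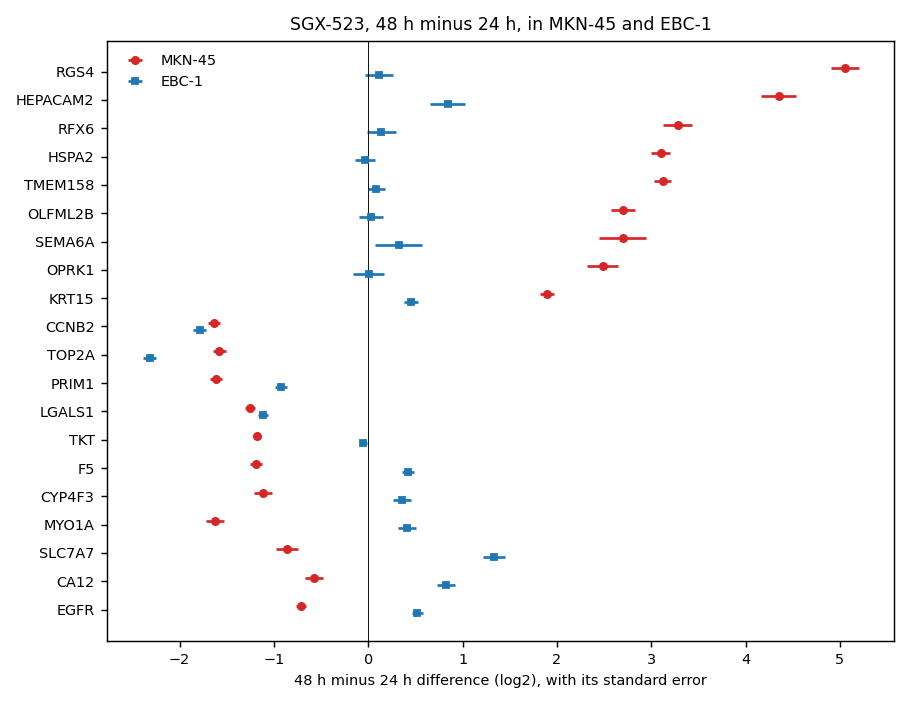
For 20 genes the 48 h minus 24 h difference (log2, with its SE) is drawn in MKN-45 and in EBC-1. RGS4, HEPACAM2 and RFX6 lie far above their EBC-1 values, while MYO1A, F5, SLC7A7 and CA12 lie below 0 in MKN-45 and above 0 in EBC-1. RGS4, HEPACAM2 and RFX6 passed the brightness filter only through the MKN-45 48 h arrays.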

How the data were processed

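RNA of EBC-1, MKN-45 and HCC827 cells was measured on 27 one-colour 3' arrays of 49395 probe sets, extracted with TRIZOL and grouped by title. The deposited values are log2 signals, the tool named is MAS5, per the submitters' processing notes, and how arrays were normalized to each other is not stated in those notes or labels. The number of arrays limits the precision.

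Probe sets at or above the median of their array on 3 or more of the 9 MKN-45 arrays were retained (26140). The brightest retained probe set with a single gene stood for the gene, which left 11211 genes. Group means were fitted with limma 3.58.1 in R 4.3.3 (lmFit, eBayes with an intensity trend) to the 6 groups of the 18 MKN-45 and EBC-1 arrays, with 12 residual degrees of freedom. HCC827 was left out of the fit. The contrasts were 48 h minus 24 h in MKN-45, each time minus DMSO, 48 h minus 24 h in EBC-1, and the difference of the lines. P-values were adjusted over all genes by Benjamini-Hochberg, with a threshold of 0.05. The code was tested on simulated data.

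Named genes were drawn from the 10 largest differences at 48 h against 24 h in each direction, the 8 largest of each class and direction (both passing, without overlap of the arrays and brighter than the median gene), the 5 largest differences between the lines in each direction, the 4 smallest p-values of each list, and MET, HGF and EGFR. Others were named to complete a count or a list after their values were seen. The arrays compared and the gene lists were chosen with earlier results of these data known. Probe sets were named from the platform's annotation, where 44988 had a single gene symbol, 1832 several and 2473 none, and 44961 were matched by Entrez ID. Promoter windows came from RefSeq (GRCh38.p14).

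Same-numbered MKN-45 arrays did not deviate together (correlations of -0.136 to 0.173), so the numbers were not used as pairs. The alternatives tried were other filters, scalings, probe set rules and spreads, a replicate block, and leaving out single arrays.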

Additional observations from a re-analysis of the deposited data

Results flagged for a closer look

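For the following genes the 48 h minus 24 h difference was not the same in MKN-45 and EBC-1 by the interaction of line and time (limma, Benjamini-Hochberg adjusted p under 0.05, which 30.0% of all tested genes passed). Each value is the MKN-45 difference minus the EBC-1 difference on the log2 scale. These genes had been picked for the largest 48 h minus 24 h differences in MKN-45 or the largest gaps between the lines. Both enter the interaction, so passing it is no separate support, and the share of all genes is no fair yardstick for them. Higher in MKN-45 were RGS4 by 4.94, HEPACAM2 by 3.51, HSPA2 by 3.13, RFX6 by 3.14 and TMEM158 by 3.03. Of these, RGS4, HEPACAM2 and RFX6 were tested only because their MKN-45 48 h arrays were above the brightness filter. OLFML2B was higher by 2.67, OPRK1 by 2.48, SEMA6A by 2.37, RASGRP1 by 1.62 and KRT15 by 1.44, and TOP2A, which fell in both lines, by 0.74. Lower in MKN-45 were SLC7A7 at -2.19, MYO1A at -2.04, F5 at -1.61, CYP4F3 at -1.47 and CA12 at -1.40. TKT stood at -1.13, CELA3A at -1.06, GAL at -0.99, PRIM1 at -0.69 and SOSTDC1 at -0.49. Both lines were measured with 3 arrays at each time.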

How the results depend on the processing

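With all 27 arrays sharing the spread, 3014 genes passed between 48 h and 24 h (1848 higher), 1813 passed between the lines (1148 higher and 665 lower in MKN-45), and 1182 were deepening and 1191 reverting. With 64 added to the linear signals 35 genes were at least 2-fold higher and 6 lower, and with the filter at the 75th percentile 46 were 2-fold higher. The cause of these shifts was not tested. Leaving out single arrays gave 4017 to 4558 genes passing (2429 to 2878 higher, 1446 to 1687 lower), with 65 to 109 genes at least 2-fold higher and 39 to 47 lower. The same settings gave 7719 to 8214 at 24 h against DMSO, 7897 to 8388 at 48 h against DMSO, and 2966 to 3334 between the lines (1885 to 2165 higher, 998 to 1177 lower). They gave 558 to 732 late-onset, 1648 to 1866 deepening and 1592 to 1809 reverting genes. The fits that leave out an SGX-523 array while keeping the same genes were chosen after seeing the data.

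With the replicate block 4650 genes passed (2920 higher, 1730 lower), and 103 and 43 were at least 2-fold higher and lower. Counts with that block were 8170 at 24 h and 8398 at 48 h against DMSO, 3452 between the lines, and 697 late-onset, 1940 deepening and 1877 reverting. The numbers do not pair the arrays, and no count moved by over 1.5 times.

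The enteroendocrine list had 5 members higher with the filter at the 75th percentile. With all 27 arrays sharing the spread, members higher numbered 1 of the D-type cyclins and CDK inhibitors, 2 of cholesterol synthesis, 3 of the BCL2 family, 6 of lysosome and autophagy and 1 of oxidative phosphorylation. Of 4979 results for 201 named genes under the alternatives, 4909 kept their direction and side of the threshold, 48 lost the threshold, 20 gained it and 2 reversed. With the mean of all kept probe sets EHF stood at -0.012 (adjusted p = 0.915) and MCL1 at -0.033 (adjusted p = 0.613), both reversed and not past the threshold. Differences of dim probe sets near background may be less reliable, which was not tested, and HGF and most hormone genes were under the filter.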

Other observations

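Among the gene groups not described above, those of lysosome and autophagy were more often higher than lower at 48 h than at 24 h, with 10 of 22 tested members higher and 1 lower (limma, Benjamini-Hochberg adjusted p under 0.05; 25.7% and 15.4% of all genes). WIPI1, which helps to form autophagosomes, read 7.47, 7.49 and 7.57 on the 48 h arrays, against 6.75, 6.76 and 6.81 on the 24 h arrays, a difference of 0.73 ± 0.12, and SQSTM1, an autophagy receptor, was higher by 0.39 ± 0.04. Genes of the amino acid response to ATF4 were mixed, with 5 of 23 higher and 8 lower (3 higher without 24 h replicate 1). SHMT2, the mitochondrial serine hydroxymethyltransferase, fell by 0.79 ± 0.07 and NUPR1, a stress-induced chromatin protein, by 0.78 ± 0.08, while PSAT1, of serine synthesis, was higher by 0.72 ± 0.07. Of 18 glycolysis genes 4 were higher and 5 lower, with ALDOA, an aldolase, lower by 0.67 ± 0.04 and SLC2A1, the glucose transporter GLUT1, higher by 0.51 ± 0.08. Reference genes moved too: GAPDH fell by 0.23 ± 0.03 and B2M was higher by 0.23 ± 0.02.

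Counts here are read against 25.7% higher and 15.4% lower among all genes. Genes of invasion and matrix adhesion had 1 of 12 higher and 7 lower, led by S100A2, a calcium-binding protein of squamous and basal epithelium, which read 6.55, 6.75 and 6.66 on the 48 h arrays, against 7.43, 7.75 and 7.63 on the 24 h arrays, a fall of 0.95 ± 0.09. Interferon response genes had 5 of 17 higher and 2 lower (3 higher without 24 h replicate 3), with IFI6, a mitochondrial antiviral protein, higher by 0.84 ± 0.10. Wnt targets and stem cell markers had 4 of 12 higher and 2 lower, with LRIG1, a negative regulator of ERBB receptors, higher by 1.16 ± 0.12. TNFSF10, the death ligand TRAIL, was higher by 0.51 ± 0.06, with 2 of 10 tested genes of that pathway higher and 1 lower. Oxidative phosphorylation subunits had 5 of 19 higher and 7 lower, and histone genes 3 of 14 higher and 4 lower. The shares of higher genes in the interferon, TRAIL, oxidative phosphorylation and histone lists lay near that of all genes. The shares of lower genes in the oxidative phosphorylation and histone lists lay above that of all genes.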
